A study of Homo sapiens with 9 samples.

Results

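HLA class II genes, CD74 and CIITA were examined in AhR-depleted MDA-MB-231 cells, an established human line of triple-negative breast cancer. The set held 10 of the 60649 genes in the count table, namely HLA-DRA, HLA-DRB1, HLA-DRB5, HLA-DPA1, HLA-DPB1, HLA-DQB1, HLA-DMA, HLA-DMB, CD74 and CIITA. They were picked by name because several of them were much lower with both hairpins in these same libraries, so their values against the control are a description and carry no test. The study transduced the line with the control vector pLKO-GFP or with either of 2 short hairpin constructs against AHR, labelled shAHR#2 and shAHR#3, and sequenced polyadenylated RNA from 3 replicates of each. All 9 libraries came from proliferating cells in DMEM with serum, and the transduced cells were puromycin-resistant pools rather than single clones. The paper's methods number the constructs #1 and #2, so the labels' numbers are kept here. No label says whether replicates were separate cultures, and the p-values given here then measure only the spread between these samples.

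MHC class II molecules are pairs of an alpha and a beta chain that display peptides, mostly from the endocytic route, to CD4+ T cells. CD74, the invariant chain, holds new pairs together and keeps their groove closed until the proteases of the endosome remove it, after which HLA-DM exchanges the last fragment for a peptide. CIITA is the coactivator that switches these genes on: it does not bind DNA itself but joins the RFX, CREB and NF-Y proteins that sit on the X and Y boxes of class II promoters. Professional antigen-presenting cells make CIITA constantly, while epithelial and tumor cells usually do so after interferon-gamma, through JAK kinases and IRF1. AhR, the ligand-activated receptor encoded by AHR, is a separate transcription factor that binds a short core in DNA together with ARNT.

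The promoter elements through which CIITA is brought to class II genes are shown first. Not every gene of the set had a window, and not every window matched both elements. RefSeq promoters of GRCh38.p14, from 250 bases before to 50 after each start, were found for 8 of the 10 genes, with 2 starts for HLA-DPA1, and there was no entry for HLA-DRA and CIITA. Capitals mark the core of the X box (AGNNACNGA) and the Y box (ATTGG, or CCAAT on the other strand), and each sequence is written 5′ to 3′ on the strand of its gene.
HLA-DRB5, chr6:32530363-32530420, minus strand: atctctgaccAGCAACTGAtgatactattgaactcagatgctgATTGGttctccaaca
HLA-DRB1, chr6:32589880-32589937, minus strand: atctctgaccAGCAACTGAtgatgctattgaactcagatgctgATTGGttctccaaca
HLA-DMA, chr6:32953162-32953220, minus strand: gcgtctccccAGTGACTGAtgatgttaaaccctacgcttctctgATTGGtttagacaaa
HLA-DMB, chr6:32941073-32941126, minus strand: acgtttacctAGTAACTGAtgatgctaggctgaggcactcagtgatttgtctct
HLA-DPA1, chr6:33073705-33073758, minus strand: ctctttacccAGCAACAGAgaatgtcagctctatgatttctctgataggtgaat
HLA-DPB1, chr6:33075846-33075905, plus strand: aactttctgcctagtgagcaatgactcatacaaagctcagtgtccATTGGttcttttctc
CD74, chr5:150412949-150413008, minus strand: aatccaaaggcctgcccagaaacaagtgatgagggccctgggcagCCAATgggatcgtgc

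The X box core stood in 6 of the 9 promoter windows of the set (66.7%) and in 15.3% of all 35116 windows in the table, searched on both strands. A Y box stood in 7 of 9 (77.8%), against 34.6% of all windows. An X box core followed by a Y box on the same strand, with at most 30 bases between them, was present in 4 of the 9 windows (44.4%) and in 76 of all 35116 (0.216%). These were the windows of HLA-DRB1, HLA-DRB5, HLA-DQB1 and HLA-DMA, with 24 bases between the boxes in the first 3 and 25 in HLA-DMA. In HLA-DMB and the HLA-DPA1 window shown, the X box core was found without the letters ATTGG behind it, and in HLA-DPB1 and CD74 only the Y box matched. GCGTG, the core to which AhR and ARNT bind, was in 1 of 9 windows (11.1%), that of HLA-DPA1 outside the stretch shown, against 36.5% of all windows. The letters were chosen after the sequences had been seen, so these shares describe the windows and test nothing.

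Total counts ran from 15991396 to 20374460 per library. AHR, the targeted gene, was counted at 114, 118 and 121 CPM, the counts scaled to a common library size, in the pLKO-GFP libraries, at 42.5, 40.4 and 41.9 with shAHR#2 and at 46.3, 52.1 and 44.5 with shAHR#3. Both hairpin groups were below the control in every library, as their labels state. Of 6 markers of the line and of breast epithelium, VIM had 46311 to 71550 counts, CD44 10673 to 16141, KRT8 4570 to 7971, KRT18 4694 to 7985, EGFR 2944 to 9425 and EPCAM 90 to 135. EGFR, a growth factor receptor, fell by 1.34 with shAHR#2 and by 0.53 with shAHR#3 on the log2 scale (edgeR adjusted p = 7.17e-30 and 9.84e-18). ESR1 had at most 4 counts and PGR none, whereas ERBB2 was present at 974 to 1550 counts.

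CIITA (ENSG00000179583.20; chromosome 16 of GRCh38, 10866222 to 10943021) was at 18.4, 16.6 and 17.2 CPM in the control libraries. With shAHR#2 it was at 9.49, 8.48 and 7.21 CPM, and with shAHR#3 at 9.93, 8.55 and 10.1. The groups with a hairpin lay wholly below the control and overlapped each other. The level was 48.2% ± 6.56 of the control mean in the shAHR#2 group and 54.7% ± 4.82 in the shAHR#3 group (SD, n = 3 each). On the log2 scale the changes were -1.04 (SE 0.10) and -0.87 (SE 0.10). As in any bulk sample, fewer cells with a transcript and less transcript per cell cannot be told apart. In GENCODE release 44, 2424 of the 22553 exon bases of CIITA overlap exons of DEXI on the opposite strand, which had 233 to 373 counts against 114 to 340 for CIITA. DEXI itself fell by 0.24 with shAHR#2 and by 0.22 with shAHR#3 on the log2 scale (adjusted p = 0.0109 and 0.0191 by edgeR's quasi-likelihood test). Its part in the CIITA counts was not tested.

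CD74 (ENSG00000019582.16; chromosome 5, 150401637 to 150412969) was by far the most abundant of the 10 genes. Its control libraries held 182, 194 and 200 CPM, those with shAHR#2 39.0, 44.2 and 42.4, and those with shAHR#3 75.6, 78.0 and 81.0. The 3 groups did not overlap, with shAHR#2 lowest and shAHR#3 between it and the control. Relative to the control mean CD74 was at 21.8% ± 1.37 and 40.8% ± 1.42 (SD, n = 3 each), and the log2 fold changes were -2.20 (SE 0.04) and -1.29 (SE 0.04).

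The peptide-presenting HLA-DP pair changed most among the genes with a usable count. HLA-DPA1, the alpha chain (ENSG00000231389.7; chromosome 6, 33064569 to 33080775), was at 8.58, 8.14 and 8.96 CPM in the control. With shAHR#2 its level was 1.07, 0.385 and 0.886 CPM, and with shAHR#3 1.34, 1.59 and 2.25. Both hairpin groups lay below the control, and every shAHR#3 library was above every shAHR#2 library. HLA-DPB1, the beta chain (ENSG00000223865.11; chromosome 6, 33075990 to 33089696), held 3.73, 2.30 and 3.14 CPM in the control libraries, 0.322, 0.321 and 0.190 in those with shAHR#2, and 1.03, 1.07 and 0.586 in those with shAHR#3. It showed the same order of groups without overlap. Against the control the log2 fold changes were -3.41 (SE 0.22) and -2.30 (SE 0.18) for HLA-DPA1, and -3.41 (SE 0.36) and -1.76 (SE 0.27) for HLA-DPB1. Both genes share 96 exon bases on opposite strands.

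HLA-DM, the peptide editor, is made of the chains encoded by HLA-DMA and HLA-DMB. HLA-DMB (ENSG00000242574.9; chromosome 6, 32934629 to 32941028) had 30, 33 and 31 counts in control libraries, 5, 6 and 0 in shAHR#2 libraries and 9, 12 and 11 in shAHR#3 libraries. The groups did not overlap, and the log2 fold changes against the control were -2.86 (SE 0.45) and -1.59 (SE 0.36). HLA-DMA (ENSG00000204257.15; chromosome 6, 32948613 to 32969094) had 108, 107 and 83 counts in control libraries, 37, 78 and 68 in shAHR#2 libraries and 64, 72 and 99 in shAHR#3 libraries. Its groups overlapped, and the log2 fold changes were -0.49 (SE 0.21) and -0.40 (SE 0.20). Without shAHR#2 replicate 1, the lowest library, the shAHR#2 value was -0.15. Where their annotations overlap, HLA-DMA shares 55 exon bases with BRD2 on the opposite strand, which had 1065 to 1673 counts. HLA-DMA and HLA-DMB also share 160 and 438 bases with a read-through gene, ENSG00000248993, that had no count in any library.

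The HLA-DR genes were close to the limit of counting. HLA-DRB5 (ENSG00000198502.6; chromosome 6, 32517353 to 32530287), a beta chain, had 14, 11 and 14 counts in control libraries, 0, 0 and 1 in shAHR#2 libraries and 1, 0 and 2 in shAHR#3 libraries. Set against a floor of 3 counts per library its level with shAHR#2 was at least 3.55-fold lower than in the control, and at least 4.43-fold lower for shAHR#3, bounds that cover counting error only. HLA-DRB1 was counted once, in shAHR#3 replicate 2, and HLA-DQB1 in no library. The HLA-DRB genes are close paralogs that differ between people in sequence and in copies, and HLA-DQB1 also differs in sequence. The share of reads that reached each of these genes is therefore uncertain.

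HLA-DRA, the alpha chain of HLA-DR (ENSG00000204287.14; chromosome 6, 32439878 to 32445046), did not follow its partners. It had 10, 13 and 13 counts in control libraries, 0, 4 and 21 in shAHR#2 libraries and 0, 1 and 38 in shAHR#3 libraries. Replicate 3 of each hairpin group lay above the whole control group, and the other 4 hairpin libraries lay below it. The log2 fold changes were -0.31 (SE 0.76) with shAHR#2 and 0.06 (SE 0.69) with shAHR#3. Without shAHR#2 replicate 3 the first was -2.35, and without shAHR#3 replicate 3 the second was -4.28. The biological coefficient of variation of HLA-DRA, the spread between replicates beyond counting error, was 51.4%, above that of 99.9% of the 1264 tested genes within 0.5 of its average log2 CPM (their median was 14.7%). HLA-DMA was also variable at 12.8%, above 99.7% of 1111 genes at a like level, while CD74 (2.83%), CIITA (5.10%), HLA-DPA1 (7.52%) and HLA-DPB1 (13.3%) were nearer to the medians of their levels, which were 2.5%, 4.98%, 7.68% and 11.9%.

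**Figure D1:**
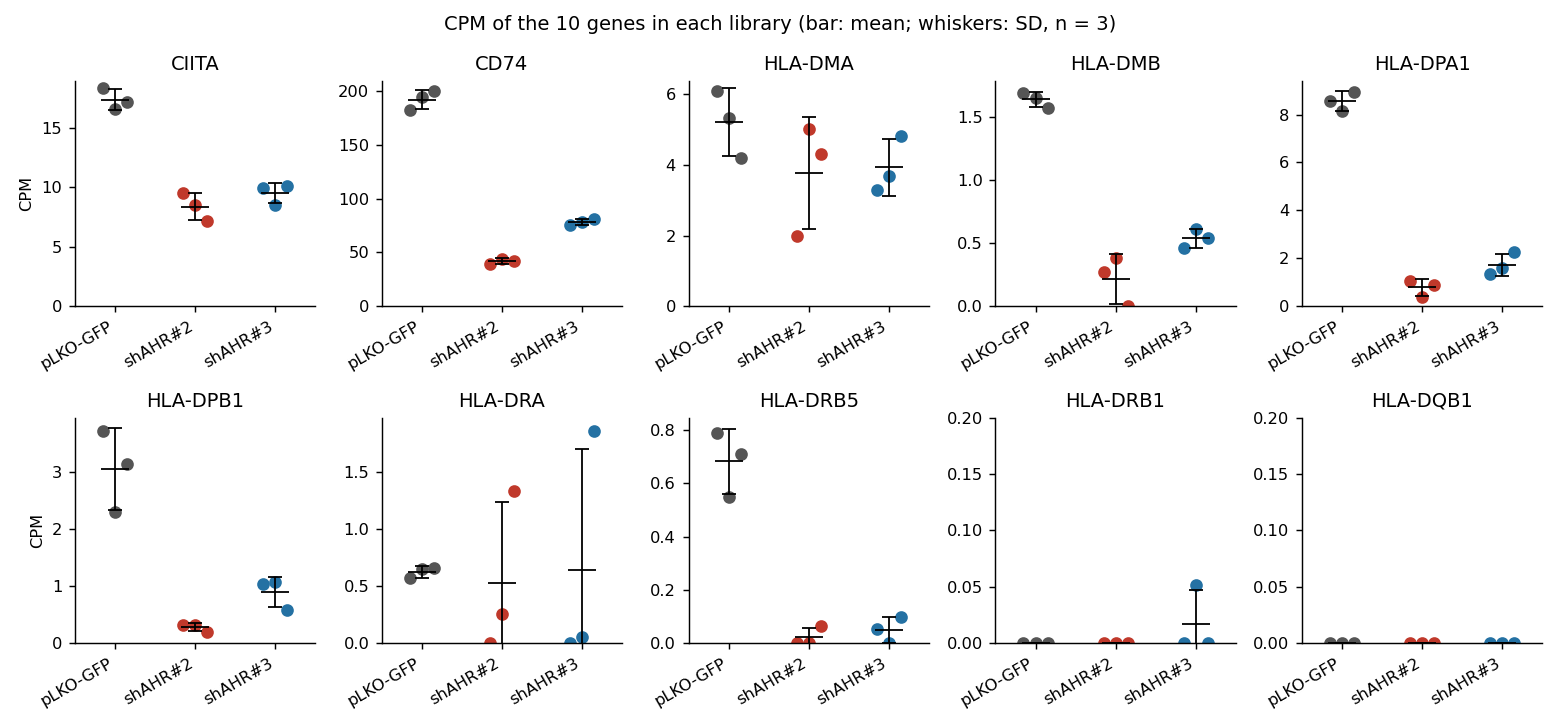
CPM of each of the 10 genes in the 9 libraries, with 1 panel per gene and a linear axis from 0 that differs between panels. Points are libraries, the bar is the group mean and the whiskers the SD (n = 3, cut off at 0). CD74 runs from 182 to 200 CPM in control libraries, 39.0 to 44.2 for shAHR#2 and 75.6 to 81.0 for shAHR#3, whereas in HLA-DRA the points of replicate 3 (1.33 and 1.86 CPM) stand above the control.

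Of the 10 genes, 8 passed the filter on low counts, and HLA-DRB1 and HLA-DQB1 did not. With shAHR#2, 7 of the 8 were past the threshold as lower, where 33.2% of all 14274 tested genes were lower and 32.6% higher. With shAHR#3 it was 6 of 8, against 27.5% lower and 26.9% higher among all genes. All libraries with a hairpin were below all control libraries in 6 of the 8 genes with either hairpin, and in 34.4% of all tested genes with shAHR#2 and 29.5% with shAHR#3. The median log2 fold change of the 8 genes was -2.53 with shAHR#2, or -2.01 with HLA-DRB5 set at its bound, and -1.44 with shAHR#3, beside -0.003 and 0.00 for all tested genes. Because the genes were chosen on these contrasts, and both contrasts share the control libraries, these counts say nothing beyond the choice.

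The comparison of the hairpins with each other was not used in the choice. The shAHR#3 libraries were higher than the shAHR#2 libraries by 0.91 on the log2 scale for CD74 (SE 0.05, 95% interval 0.81 to 1.00), with an adjusted p of 3.56e-18 in edgeR's quasi-likelihood test, adjusted by Benjamini-Hochberg over all genes tested. HLA-DPA1 was higher by 1.11 (SE 0.29, interval 0.52 to 1.70, adjusted p = 0.00198 in the same edgeR test) and HLA-DPB1 by 1.65 (SE 0.44, interval 0.75 to 2.55, adjusted p = 0.00246). In each of these 3 genes all shAHR#3 libraries were above all shAHR#2 libraries, as in 25.5% of all tested genes. HLA-DMB had a difference of 1.27 (interval 0.16 to 2.37), without overlap of the groups, that did not pass the threshold (edgeR adjusted p = 0.0598). When libraries were left out the HLA-DMB difference ran from 0.73 to 1.85, with edgeR adjusted p between 0.0287 and 0.35. It passed only without shAHR#2 replicate 2 (1.85).

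CIITA did not pass in the same edgeR comparison, with a difference of 0.17 (SE 0.11, interval -0.05 to 0.40, adjusted p = 0.218). HLA-DMA (0.10, interval -0.34 to 0.53, adjusted p = 0.749) and HLA-DRA (0.36, adjusted p = 0.734) did not pass either. The HLA-DRA difference was -3.98 without shAHR#3 replicate 3 (adjusted p = 0.00766). For HLA-DRB5 no fold is given, since both groups were at or under the floor. Thus 3 of 8 genes were higher with shAHR#3, where 21.9% of all tested genes were higher and 20.4% lower, and the other 5 did not pass. The median of the 7 genes other than HLA-DRB5 was 0.91, beside 0.007 for all tested genes. With the hairpin groups alone, HLA-DRA, HLA-DRB5 and HLA-DMB did not pass the filter on low counts. They entered this comparison only through the control libraries, where several members were high, so the count and the median are a description. AHR was higher with shAHR#3 by 0.19 (adjusted p = 0.00283), and without shAHR#3 replicate 2 by 0.13 (adjusted p = 0.0626).

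**Figure D2:**
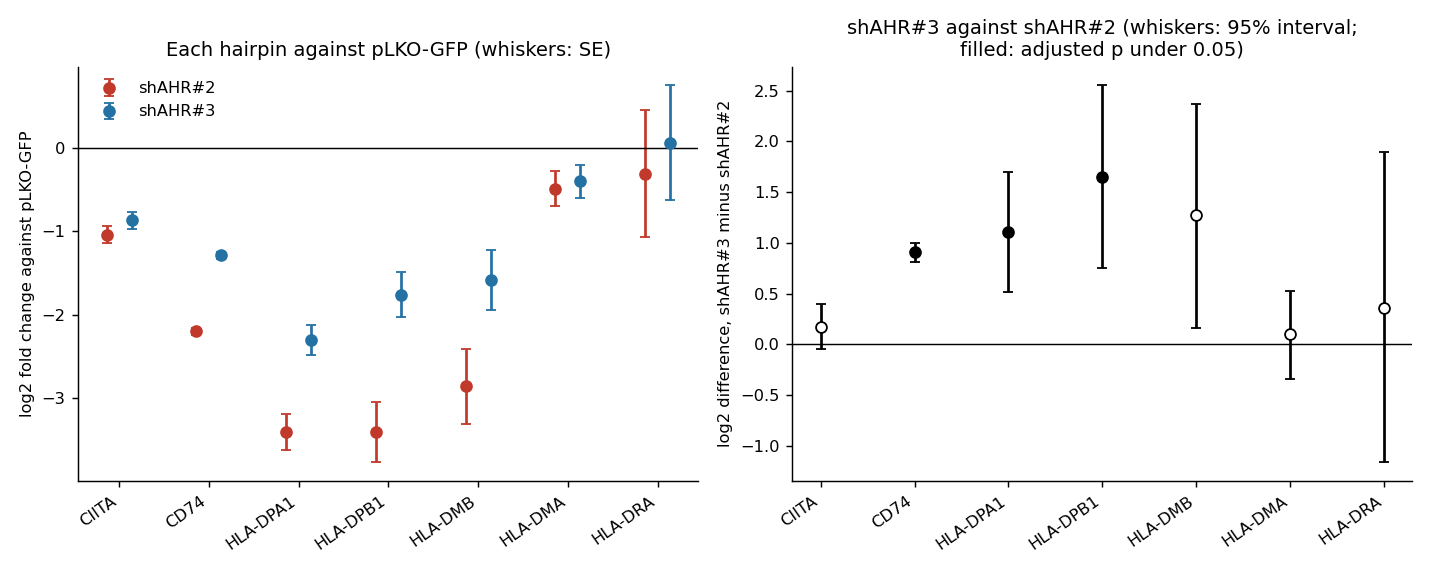
Log2 fold changes of 7 of the genes, HLA-DRB5 being left out because of its floor. On the left are shAHR#2 and shAHR#3 against pLKO-GFP with SE, on the right shAHR#3 minus shAHR#2 with 95% intervals, filled where the edgeR adjusted p was under 0.05. CD74, HLA-DPA1 and HLA-DPB1 are filled at 0.91, 1.11 and 1.65, while CIITA lies at 0.17 with an interval across 0.

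Levels of different genes were compared per kb of exon. In the control the order was CD74 (42.4 CPM per kb), HLA-DMA (2.07), HLA-DPA1 (1.49), CIITA (0.772), HLA-DPB1 (0.585), HLA-DRB5 (0.546), HLA-DRA (0.502) and HLA-DMB (0.355). The libraries' ranges overlapped between HLA-DPB1 and HLA-DRB5 and between HLA-DRB5 and HLA-DRA, and the other neighbours in this order did not overlap. With shAHR#2 the order began with CD74 (9.25 CPM per kb), HLA-DMA (1.49), HLA-DRA (0.425), CIITA (0.372) and HLA-DPA1 (0.136). With shAHR#3 the first 5 were the same genes at 17.3, 1.56, 0.511, 0.422 and 0.3. By group means HLA-DPA1 stood above CIITA in the control and below it with both hairpins. With shAHR#3 the ranges of these genes overlapped, CIITA starting at 0.379 and HLA-DPA1 reaching 0.391. In the hairpin groups the range of HLA-DRA overlapped both of its neighbours, and per kb of the longest transcript CIITA came before HLA-DRA there.

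Within the HLA-DP pair, the ratio of HLA-DPA1 to HLA-DPB1 per kb was 2.09, 3.22 and 2.59 in control libraries, 3.03, 1.09 and 4.24 in shAHR#2 libraries and 1.18, 1.34 and 3.48 in shAHR#3 libraries. The groups overlapped, and with shAHR#2 the ratio rested on 3 to 6 counts of HLA-DPB1. For HLA-DMA to HLA-DMB the ratio was 6.59, 5.94 and 4.90 in the control and 13, 11 and 16.5 with shAHR#3. With shAHR#2 it was 13.5 and 23.8 in replicates 1 and 2, and HLA-DMB had no count in replicate 3. Every ratio in a hairpin library was above those of the control. CD74 to HLA-DRA was between 81.9 and 88.6 in the control and between 8.77 and 419 in the hairpin libraries where HLA-DRA was counted.

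Together the 8 HLA genes of the set held 380, 373 and 380 reads in control libraries, 68, 99 and 107 in shAHR#2 libraries and 120, 138 and 208 in shAHR#3 libraries. In CPM this was 19.8 ± 1.53, 5.59 ± 1.70 and 7.81 ± 2.12 (SD, n = 3 each). There were 9.76 ± 1.11 reads of CD74 per HLA read in control libraries, 7.97 ± 2.39 in shAHR#2 libraries and 10.4 ± 2.17 in shAHR#3 libraries, ranges that overlapped. Of 15 further class II genes and pseudogenes, 12 were in the table, and none of those had more than 2 counts in a library. HLA-DOA had the most, with 1, 2 and 1 counts in the control.

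By Pearson's r of log2 CPM over the 9 libraries, the members most like CD74 were HLA-DPA1 (0.96), HLA-DPB1 (0.96), CIITA (0.93) and HLA-DRB5 (0.92), followed by HLA-DMB (0.89), HLA-DMA (0.55) and HLA-DRA (0.32). Among 11829 other genes whose average log2 CPM was 1 or more, the 5 most like CD74 were HTRA1 (r = 0.9989), MCAM (0.9986), CMTR1 (0.9974), TPGS2 (0.9973) and CLPTM1L (0.9972). HTRA1, a secreted serine protease, averaged 133 CPM in control libraries, 28.5 in the shAHR#2 libraries and 54.9 in the shAHR#3 libraries. With 3 groups of libraries such values mostly reflect the order of the group means, and they are given as a description.

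The genes of the proteins that act with CIITA on these promoters changed in both directions. Counts in this and the next 3 lists are read beside the 32.6% of all tested genes that were higher and 33.2% lower with shAHR#2, and the 26.9% and 27.5% with shAHR#3. Of 20 genes of the class II enhanceosome and of CIITA regulation, 18 were tested. With shAHR#2, 4 were higher, 5 lower and 9 not past the threshold (median -0.01). With shAHR#3, 3 were higher, 5 lower and 10 not (median -0.06). RFX5, the DNA-binding subunit of the RFX complex, had CPM of 94.4, 84.9 and 89.9 in control libraries, 60.4, 58.6 and 61.9 in shAHR#2 libraries and 72.2, 66.7 and 70.6 in shAHR#3 libraries. It fell by 0.57 (SE 0.04) and by 0.36 (SE 0.04) on the log2 scale, with adjusted p of 5.52e-14 and 4.09e-09 from edgeR's test. Its groups did not overlap.

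The other subunits moved less evenly. RFXAP had a log2 fold change of 0.01 with shAHR#2 (adjusted p = 0.958 by edgeR) and fell by 0.44 with shAHR#3 (adjusted p = 0.0174), a call that was lost without pLKO-GFP replicate 1 (-0.36) or shAHR#3 replicate 2 (-0.38). RFXANK, at 0.15 and 0.09, did not pass with either hairpin (adjusted p = 0.107 and 0.378), though without shAHR#2 replicate 3 (0.26) or pLKO-GFP replicate 1 (0.20) it passed with shAHR#2. Of the NF-Y subunits, NFYB fell by 0.35 and by 0.13 (adjusted p = 1.94e-06 and 0.0388), and the shAHR#3 value, close to the threshold, was no longer called by DESeq2 (adjusted p = 0.0773) or without replicate 2 or 3 of pLKO-GFP, 2 or 3 of shAHR#2, or 1 or 3 of shAHR#3 (-0.14 to -0.11). NFYA fell by 0.19 with shAHR#3 (adjusted p = 3.29e-05) and had -0.02 with shAHR#2 (adjusted p = 0.725), and NFYC had -0.08 and -0.11 (adjusted p = 0.251 and 0.107). The genes that rose with both hairpins were EP300, an acetyltransferase, by 0.28 and 0.16, HDAC1, a deacetylase, by 0.20 and 0.20, and ZBTB7B, a repressor in T cells, by 0.21 and 0.23. SPI1 and IRF4, which act on CIITA in blood cells, had at most 3 counts.

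In interferon-gamma signalling, 19 of 25 genes were tested. With shAHR#2, 9 were higher, 7 lower and 3 not past the threshold (median 0.04), and with shAHR#3, 7 were higher, 3 lower and 9 not (median 0.08). SOCS1, an inhibitor of JAK kinases, had 14, 37 and 28 counts in control libraries, 7, 8 and 3 in shAHR#2 libraries and 14, 10 and 12 in shAHR#3 libraries, and fell by 1.91 and by 1.17 on the log2 scale (edgeR adjusted p = 1.18e-04 and 0.00562). Without pLKO-GFP replicate 2 the shAHR#3 value was -0.88 and did not pass (adjusted p = 0.0752).

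GBP4 and GBP5, guanylate-binding proteins, are usual targets of interferon-gamma. GBP4 had CPM of 2.60, 2.00 and 2.53 in control libraries, 4.24, 3.60 and 3.67 in shAHR#2 libraries and 4.58, 6.29 and 5.91 in shAHR#3 libraries. It rose by 0.70 and by 1.24 (edgeR adjusted p = 0.00128 and 9.45e-08). GBP5 had 1, 2 and 2 counts in control libraries, 7, 16 and 13 in shAHR#2 libraries and 8, 13 and 7 in shAHR#3 libraries, and passed as higher with both (adjusted p = 8.01e-05 and 0.00283). SOCS3, an inhibitor that STAT3 induces, rose by 0.71 and by 0.73 (adjusted p = 4.95e-16 and 3.15e-16). The ligand gene IFNG and the chemokine gene CXCL9 had no count in any library, and CXCL10 had at most 5.

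The endosomal genes that cut CD74 and load class II molecules changed in both directions. Of 22, 20 were tested. With shAHR#2, 12 were higher, 5 lower and 3 not past the threshold (median 0.18), and with shAHR#3, 9 were higher, 6 lower and 5 not (median 0.07). CTSV, the protease cathepsin V, had CPM of 4.35, 3.15 and 3.60 in control libraries, 1.18, 0.642 and 1.64 in shAHR#2 libraries and 1.13, 1.28 and 1.07 in shAHR#3 libraries, and fell by 1.66 with each (edgeR adjusted p = 3.45e-07 and 2.59e-07). CTSH, cathepsin H, fell by 1.39 and by 1.26 (adjusted p = 6.71e-14 and 5.13e-13). The other proteases, named after their values were seen, went in both directions. CTSF, cathepsin F, fell by 0.34 and by 0.65 (adjusted p = 0.000433 and 2.00e-08), and SPPL2A, which cleaves CD74 within the membrane, by 0.24 and by 0.18 (adjusted p = 1.59e-05 and 0.000596). CTSD rose by 0.25 and by 0.54 (edgeR adjusted p = 1.22e-08 and 2.72e-17). CTSL rose by 0.28 and by 0.11 (adjusted p = 8.18e-08 and 0.0136), and CTSA by 0.08 and by 0.11 (adjusted p = 0.0488 and 0.00643). CTSZ fell by 0.21 with shAHR#2 (adjusted p = 9.84e-08) and was at 0.06 with shAHR#3 (adjusted p = 0.0862). CD9, a tetraspanin of the cell surface, rose by 1.04 and by 0.99 (adjusted p = 1.61e-26 and 1.49e-25), and LGMN, the asparaginyl endopeptidase, by 0.74 and by 0.77 (adjusted p = 9.78e-17 and 4.35e-17). IFI30, the reductase that opens disulfide bonds in endosomes, had no count.

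Of the class I genes, which present peptides from the cytosol to CD8+ T cells, 10 of 12 were tested. With shAHR#2, 3 were higher, 2 lower and 5 not past the threshold (median 0.08), and with shAHR#3, 2 were higher, 2 lower and 6 not (median -0.03). HLA-B, a class I heavy chain, had CPM of 12.3, 9.04 and 9.17 in control libraries, 2.79, 3.08 and 3.67 in shAHR#2 libraries and 7.61, 2.97 and 8.89 in shAHR#3 libraries. It fell by 1.68 and by 0.64 (edgeR adjusted p = 1.58e-08 and 0.00336), and replicate 2 of shAHR#3 stood among the shAHR#2 libraries. The shAHR#3 value was -0.29 without that replicate (adjusted p = 0.0681), and DESeq2 did not call it (-0.65, adjusted p = 0.171). HLA-F fell by 1.12 and by 1.18 (adjusted p = 0.0201 and 0.0146) from 15 to 21 counts in the control. The first call was lost with DESeq2 (-1.13, adjusted p = 0.0572), and without pLKO-GFP replicate 2 (-1.01), shAHR#2 replicate 1 (-1.14) or shAHR#2 replicate 3 (-0.79), and the second without pLKO-GFP replicate 2 (-1.07) or shAHR#3 replicate 2 (-0.94).

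B2M, the light chain of every class I molecule, rose by 0.31 and by 0.13 (edgeR adjusted p = 4.25e-11 and 7.33e-04), and TAPBP, which encodes tapasin, by 0.51 and by 0.60 (adjusted p = 6.32e-05 and 4.32e-06). How reads of polymorphic HLA genes were assigned is not given in the sources used here, and low HLA counts are read with that limit.

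**Figure D3:**
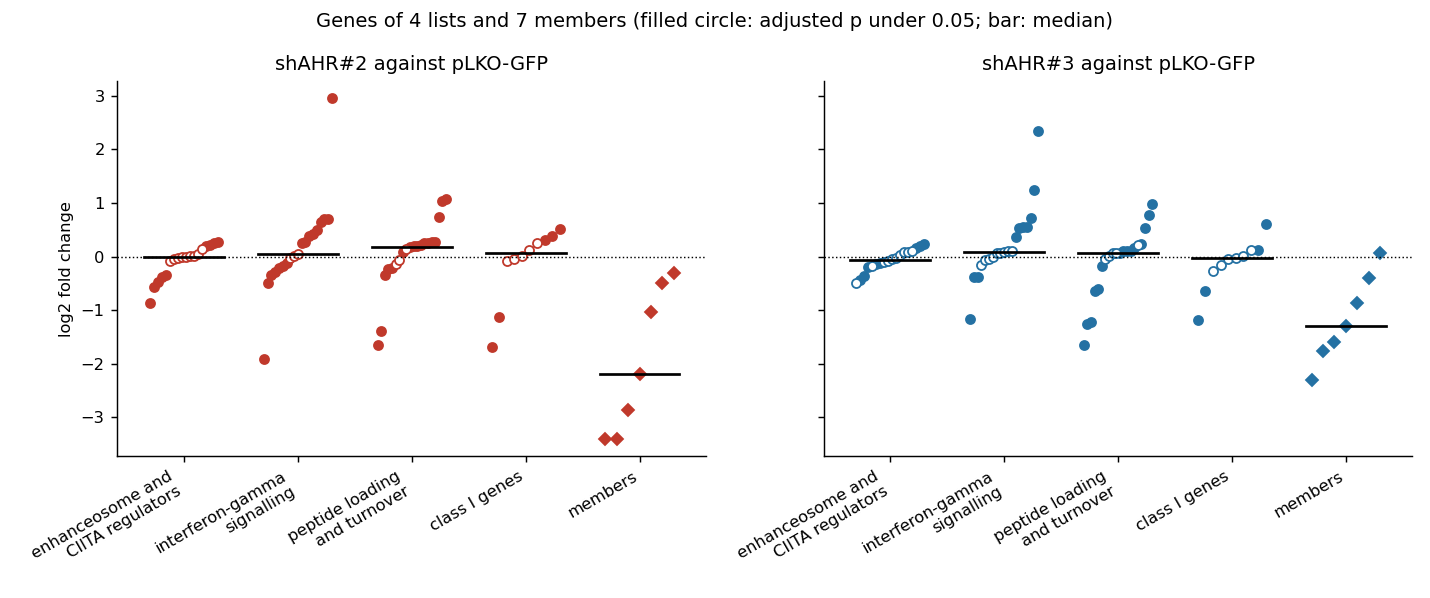
Log2 fold change of every tested gene of 4 gene lists, and of 7 of the class II genes and CIITA as diamonds, with shAHR#2 on the left and shAHR#3 on the right. Filled circles passed an edgeR adjusted p of 0.05, open circles did not, diamonds carry no test and bars are medians. The list medians lie between -0.06 and 0.18, and the diamonds reach -3.41 with shAHR#2 and -2.30 with shAHR#3.

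The class II genes are interspersed on chromosome 6 with genes of class I peptide supply. Between the outermost members lay 5 other tested genes, TAP1 and TAP2 (the peptide transporter), PSMB8 and PSMB9 (proteasome subunits) and BRD2. By edgeR 0 of these 5 passed the threshold in any of the 3 comparisons. At an unadjusted p under 0.05 the counts were 0, 0 and 1 of 5, and DESeq2 called 0. Their medians were 0.02 with shAHR#2, -0.02 with shAHR#3 and -0.07 between the hairpins. Of the 53 tested genes that begin within 1 Mb of the members, 6 were higher and 18 lower with shAHR#2 (median -0.11, from -2.46 to 1.42), and 5 were higher and 14 lower with shAHR#3 (median -0.06). The shares of all tested genes called lower were 33.2% and 27.5%, and of those called higher 32.6% and 26.9%. HLA-DPA1, HLA-DPB1 and HLA-DMB lay below all 53 of them with either hairpin. HLA-DMA (-0.49 and -0.40) and HLA-DRA (-0.31 and 0.06) lay within their range. The members were picked on these contrasts and the neighbours were not, so this order is a description.

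**Figure D4:**
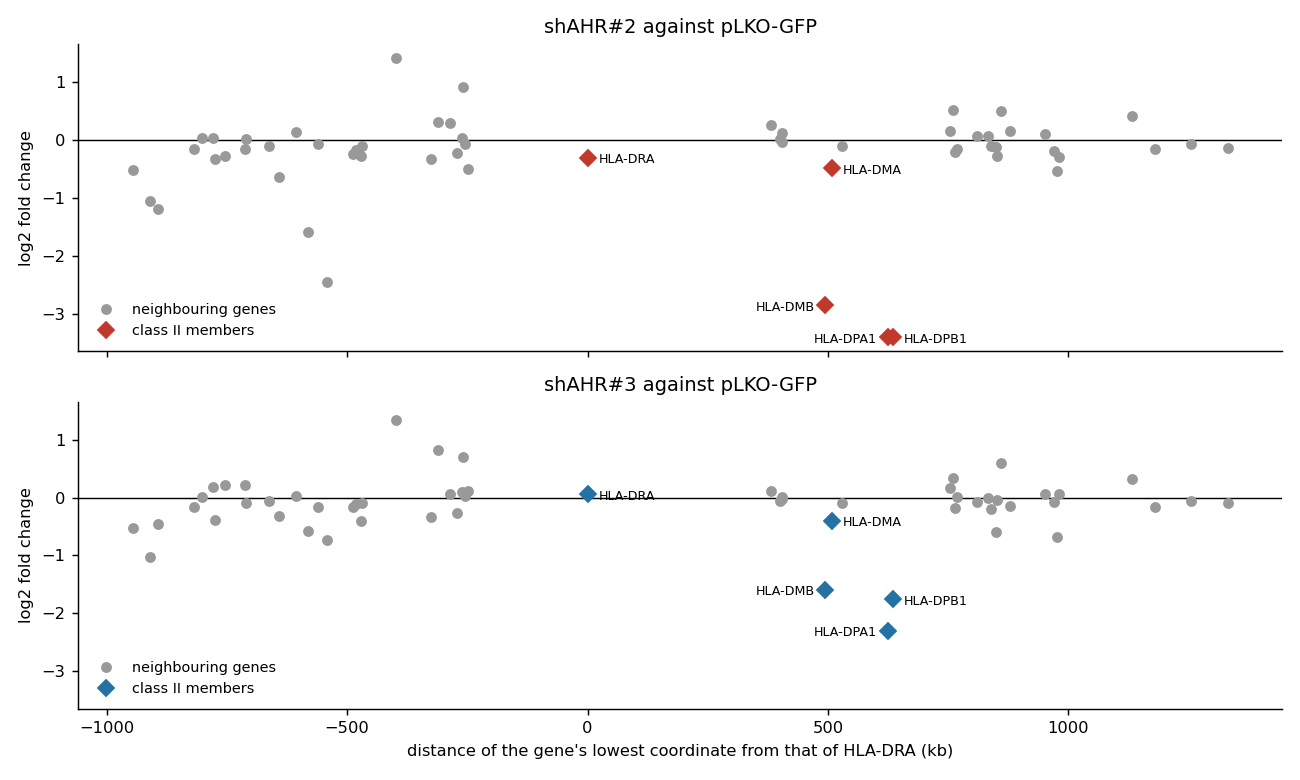
Log2 fold change of the 53 tested neighbours (grey) and of 5 HLA class II genes (coloured) against the distance, in kb, of a gene's lowest coordinate from that of HLA-DRA, for shAHR#2 above and shAHR#3 below. HLA-DMB, HLA-DPA1 and HLA-DPB1 (-2.86, -3.41 and -3.41 with shAHR#2) lie below every neighbour, of which the lowest is at -2.46. HLA-DMA and HLA-DRA lie within the neighbours' range, and the class II genes were picked on these contrasts.

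CD74 and CIITA lie elsewhere, on chromosomes 5 and 16. Of 22 tested genes within 1 Mb of CD74, 18 were lower with shAHR#2 (median -0.52) and 11 lower and 3 higher with shAHR#3 (median -0.15). With shAHR#3 against shAHR#2, 16 of the 22 were higher and the other 6 did not pass (median 0.33). The counts near CD74 and CIITA are read beside the shares of all tested genes. These were 33.2% lower and 32.6% higher with shAHR#2, and 27.5% and 26.9% with shAHR#3. Between the hairpins 21.9% were higher and 20.4% lower. Over all 656 tested genes of chromosome 5 the medians were -0.48, -0.26 and 0.21 in the 3 comparisons, beside -0.003, 0.00 and 0.007 for all genes. Of these 656, 474 were lower and 50 higher with shAHR#2, and 390 lower and 59 higher with shAHR#3. Between the hairpins 341 were higher with shAHR#3 and 52 lower. CD74 was lower than 97.1% of the other 655 genes of the chromosome with shAHR#2 and 96.8% with shAHR#3, and its difference between the hairpins was exceeded by 7.94% of them. Its places against the control are a description, since CD74 belongs to the set picked on those contrasts. The part of the chromosome in the CD74 values was not tested. Of 13 tested genes within 1 Mb of CIITA, 5 were higher and 4 lower with shAHR#2 (median -0.01) and 4 were higher and 4 lower with shAHR#3 (median -0.04).

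Markers of the blood cells that make class II molecules constantly were uneven in level. MS4A1 and CD79B of B cells, CD163, CD1C and FCER1A of macrophages and dendritic cells and CD3E of T cells had no count in any library, whereas CSF1R had 21 to 71 counts, PAX5 1 to 51 and PTPRC 1 to 33. The summed level of 5 B cell markers was 0.101 to 0.508 CPM in control libraries, 2.04 to 3.60 in shAHR#2 libraries and 1.34 to 2.05 in shAHR#3 libraries, and that of 2 leukocyte markers 0.0565 to 0.2, 0.886 to 1.77 and 0.716 to 1.46 CPM. These sums were thus higher where the class II genes were lower. They rested on PAX5, which rose by 3.79 and by 2.95, and on PTPRC, which rose by 3.45 and by 2.98 on the log2 scale (edgeR adjusted p = 2.90e-10, 6.30e-07, 2.63e-07 and 1.05e-05). The 7 macrophage and dendritic cell markers summed to 3.25 to 4.66 CPM in control libraries, 1.80 to 2.47 in shAHR#2 libraries and 3.68 to 4.01 in shAHR#3 libraries. Of these, CD14 fell by 1.40 and CSF1R by 0.78 with shAHR#2 (adjusted p = 0.00348 and 0.00316), and with shAHR#3 their values of -0.58 and 0.15 did not pass (adjusted p = 0.170 and 0.540). Both lie on chromosome 5, as CD74 does, and CSF1R is among the 22 tested genes within 1 Mb of CD74. The median of that chromosome was -0.48 with shAHR#2, and its part in the values of CD14 and CSF1R was not tested. The part of such cells in the class II values was not tested.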

How the data were processed

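Polyadenylated RNA of 9 MDA-MB-231 libraries was prepared from 500 ng of total RNA with a stranded kit and sequenced from a single end. Alignment by the authors was to GRCh38.p13, using STAR, and the submitters' processing notes also name featureCounts and Subread. The deposited values are whole-number read counts per gene, without normalization. Which annotation release served for counting, and its strand setting, are not given in the sources used here.

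Everything after the counts was computed with edgeR 4.0.16 (on limma 3.58.1) and DESeq2 1.42.0 in R 4.3.3, and with pandas 2.3.3 in Python 3.11.15. Genes were kept by filterByExpr (minimum count 10, minimum total 15), libraries were scaled by TMM, and 14274 genes were fitted once over all libraries by quasi-likelihood with a mean per group. A gene was called where its Benjamini-Hochberg adjusted p was under 0.05. On simulated counts for 14274 genes with 200 changed, modelled on shAHR#2 against pLKO-GFP, 188 were recovered with 6 false calls. In the data far more genes were called in that comparison, 32.6% higher and 33.2% lower. The simulation therefore checks the code and does not give the error rate of the real calls. Replicates differed beyond counting error, with a chi-square of 1.75 to 4.15 per degree of freedom and a common biological coefficient of variation of 2.96%.

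The members and gene lists were chosen with earlier results of these data known, and the motif letters and the surroundings of CD74 and CIITA after the data were seen. Named genes were the 10 members, AHR, the RFX and NF-Y subunits, from each list up to 4 genes with the largest mean change among those called in 1 direction with both hairpins, and the 5 genes most like the most abundant member. Some genes of the lists are counted in them but not reported singly here. Positions and lengths are from GENCODE release 44, which held 60463 of 60605 gene identifiers. Alternatives were DESeq2, its size factors in edgeR, no filter, a mean of at least 50 counts, the compared groups alone, a block, each library left out in turn and a threshold of 0.01. The floor of 3 counts covers counting error only, and the 95% intervals come from the spread between replicates in the fit.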

Additional observations from a re-analysis of the deposited data

Results flagged for a closer look

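Differences between the hairpins that passed edgeR's quasi-likelihood test were looked at again. Among the class II set these were CD74 (0.91 higher with shAHR#3 on the log2 scale), HLA-DPA1 (1.11) and HLA-DPB1 (1.65), each with all 3 shAHR#3 libraries above all 3 shAHR#2 libraries. AHR itself was 0.19 higher with shAHR#3, and 0.13 without shAHR#3 replicate 2, which did not pass.

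Among the other genes named, the log2 difference of shAHR#3 minus shAHR#2 was 0.21 for RFX5, -0.45 for RFXAP, -0.18 for NFYA, 0.22 for NFYB, -0.13 for EP300, 0.54 for GBP4, 1.04 for HLA-B and -0.18 for B2M. The call of RFXAP was lost with DESeq2 (adjusted p = 0.0571), or without shAHR#2 replicate 1 (-0.41) or shAHR#3 replicate 2 (-0.39). The direction thus differed within the RFX and NF-Y complexes. HLA-B rested on shAHR#3 replicates 1 and 3, since replicate 2, at 2.97 CPM, lay within the range of shAHR#2. What made the hairpins differ was not tested.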

How the results depend on the processing

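Of 1593 values under alternatives, 1521 were labelled the same as the reported result. For a fold change this meant the same direction and side of the threshold. Numbers of genes called needed only to be near the reported ones, as with 26 chromosome 6 neighbours under the block with shAHR#2 in place of 24. Some alternatives left out a library of the group not compared, which could change little. The members called as lower numbered 7 with shAHR#2 and 6 with shAHR#3, but 4 and 3 at a mean of at least 50 counts, a filter that leaves fewer of them to test. At a threshold of 0.01, 14 of the neighbouring genes on chromosome 6 were called with shAHR#2 in place of 24, and 5 of the enhanceosome genes with shAHR#3 in place of 8. When libraries were left out, enhanceosome calls between the hairpins numbered 6 to 10 (10 in the reported fit), with 6 without shAHR#2 replicate 1, and class I calls with shAHR#3 2 to 5 (4 in the reported fit), with 2 without shAHR#3 replicate 2. HLA-DRA depended on single libraries. Its log2 fold change ran from -2.35 to 0.35 with shAHR#2, from -4.28 to 0.63 with shAHR#3 and from -3.98 to 2.41 between the hairpins when libraries were left out, the leaving out of both replicates 3 together having been added after the data were seen (-2.35, -4.28 and -1.94). HLA-DMA between the hairpins ran from -0.24 to 0.36. With shAHR#2, RFXAP ran from -0.04 to 0.09 and NFYA from -0.02 to 0.01. AHR between the hairpins ran from 0.13 to 0.25.

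The correlation of same-numbered deviations from the group means was between 0.00314 and 0.0578 over the 9 pairs. Different-numbered libraries were not compared, so these values do not settle whether the replicate numbers pair the libraries. With the replicate block the HLA-DRA value with shAHR#3 turned to -0.27, while the block left the number of members called as it was in the 3 comparisons.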

Other observations

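Further genes of the class II route were picked after their values were seen and are given as values. CTSS, the protease cathepsin S that trims CD74 on class II molecules, was at 9.26, 9.84 and 11.4 CPM in control libraries, 21.0, 22.6 and 21.4 in shAHR#2 libraries and 11.5, 13.7 and 10.6 in shAHR#3 libraries. It rose by 1.08 with shAHR#2 on the log2 scale (edgeR adjusted p = 1.38e-12), while the value with shAHR#3 was 0.22 (adjusted p = 0.0615), and shAHR#3 minus shAHR#2 was -0.86 (adjusted p = 6.82e-10). CD83, which protects class II molecules from ubiquitination, fell by 0.60 with shAHR#3 (adjusted p = 2.07e-05) and was at 0.14 with shAHR#2 (adjusted p = 0.251). HLA-E, a class I gene, rose by 0.39 with shAHR#2 (adjusted p = 0.000279) and was at -0.16 with shAHR#3 (adjusted p = 0.156).

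CTSB, cathepsin B, had 763, 708 and 834 counts in control libraries, 1232, 552 and 89 in shAHR#2 libraries and 88, 86 and 850 in shAHR#3 libraries. The groups overlapped. Its log2 fold change was -0.13 with shAHR#2 (edgeR adjusted p = 0.776) and -1.23 with shAHR#3 (adjusted p = 0.012), with replicate 3 of shAHR#3, at 41.5 CPM, within the control range of 35.4 to 43.1. That library was also the highest for HLA-DRA, whereas shAHR#2 replicate 3, above the control for HLA-DRA, was the lowest of its group for CTSB.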
